A study of Mus musculus with 32 samples.

Results

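Selenbp1 and 9 other genes that mark the mature absorptive cells of the colon, Krt20, Car1, Car2, Car4, Aqp8, Guca2a, Slc26a2, Ceacam1 and Lypd8, were followed in sorted progenitor cells of mouse colonoids, epithelial organoids grown from crypts of the proximal colon. The 10 genes were picked by name, with Selenbp1 taken for its change with bethanechol in 4 of the mice, and all 10 are among the 23517 genes of the count table. The cells came from Lgr5-EGFP-IRES-CreERT2 mice, in which the Lgr5 locus drives EGFP and so marks stem and progenitor cells, and the colonoids were kept in L-WRN medium, which supplies Wnt3a, R-spondin and noggin. Colonoids of each of 8 mice were left untreated (UT) or given bethanechol (Bch), which activates muscarinic acetylcholine receptors of all types, at 250 nM in fresh medium daily over 4 days. Mice 1 to 4 are labelled male, with sorted Lgr5+ cells as the source and the RNAeasy Plus Micro Kit for the RNA. Mice 7 to 10 carry no sex label, their source is given as colonic organoids, and their RNA was taken with the RNAeasy Mini Kit. By the design text 4 of the mice were female and 4 male, so labelled sex, kit and labelled source cannot be told apart between the sets, and the sets are called here by their mouse numbers. The labels give no age.

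In the colon, cells born from Lgr5-expressing stem cells at the crypt base stop dividing and mature as they move towards the surface, where absorptive colonocytes take up salt and water and line the lumen. Guca2a encodes guanylin, a secreted peptide that binds the receptor guanylate cyclase C on neighbouring cells. Carbonic anhydrases supply protons and bicarbonate for ion exchange, Aqp8 is a water channel of the surface membrane, and Slc26a2 carries sulfate into the cell. Selenbp1 encodes an enzyme that oxidises methanethiol, a sulfur gas made by gut bacteria, and Krt20 is a keratin of the upper crypt. Ceacam1, an adhesion protein, and Lypd8, a lipid-anchored protein that holds flagellated bacteria off the epithelium, sit on the cell surface.

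Each mouse and treatment gave 2 technical replicates, whose unique molecular identifiers (UMIs) were summed, and the 16 sums held 557512 to 4050342 UMIs. The lowest sum was that of untreated mouse 3, and most sums came from 3000 sorted cells, that of untreated mouse 1 from 13114. At these depths a gene without a UMI could be present at up to 0.741 to 5.38 counts per 1000000 (CPM). Levels below are CPM normalized by TMM, edgeR's trimmed mean of M-values. Reads were counted once per molecule from the 3′ end, so a level does not scale with the length of the gene. Of 12 marker genes of fibroblasts, immune cells, endothelium and enteric nerves and glia, 8 are in the table and their summed level was 2.74 to 15.4 CPM, with 1 to 4 of them at 0 in every sum of a group.

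The reading of Selenbp1 depends on its neighbour Selenbp2, and the sequences are shown because the 2 genes share most of their letters. Selenbp1 lies on the plus strand at chr3:94933056-94944758 of GRCm38 and Selenbp2 at chr3:94693556-94704413, on the same strand. Their coding sequences hold 1419 bases each and are the same at 1401 of them, an identity of 98.7%. The last 60 coding bases, with the stop codon, are given 5′ to 3′ from the GENCODE M21 transcripts, at chr3:94944509-94944568 and chr3:94704157-94704216, and the capital marks the single base that differs.
Selenbp1: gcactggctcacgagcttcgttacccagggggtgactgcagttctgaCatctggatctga
Selenbp2: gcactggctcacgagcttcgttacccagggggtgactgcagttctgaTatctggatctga
Of the stretches of 65 bases, the length of the cDNA reads, in the last 500 bases of the Selenbp1 transcripts, 39% also occur in Selenbp2, and of those of Ceacam1 40.7% occur in Ceacam2, which held 12 UMIs in all. For Car1 11.8% occur in Gm5843, and for the other 7 genes none occur in another gene. How the counting treated reads that match both genes is not given in the sources used here. As deposited, Selenbp1 held 4001 UMIs over the 16 sums and Selenbp2 58, with 4 sums of Selenbp2 at 0.

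The 250 bases before the start sites were compared as well, because the 2 genes had such unequal counts. They are taken from RefSeq (GRCm38.p6, plus strand), at chr3:94932833-94933082 for Selenbp1 and chr3:94693323-94693572 for Selenbp2, and capitals mark every match to TATAAA, the TATA box, or to TTTATG, the core bound by CDX factors, read on either strand.
Selenbp1: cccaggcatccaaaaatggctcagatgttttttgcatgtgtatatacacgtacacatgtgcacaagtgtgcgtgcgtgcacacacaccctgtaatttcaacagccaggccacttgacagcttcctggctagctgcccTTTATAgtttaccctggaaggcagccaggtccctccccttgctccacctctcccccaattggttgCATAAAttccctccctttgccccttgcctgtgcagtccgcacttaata
Selenbp2: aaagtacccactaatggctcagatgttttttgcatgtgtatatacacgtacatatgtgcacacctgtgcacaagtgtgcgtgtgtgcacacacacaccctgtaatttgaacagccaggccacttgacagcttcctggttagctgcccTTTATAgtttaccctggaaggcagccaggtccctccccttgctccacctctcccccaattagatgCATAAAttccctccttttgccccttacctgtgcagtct
Both hold 1 match to each motif at the same spacing, and from the TATAAA match to the end of the Selenbp2 window 98 of 103 bases are the same (95.1%). That match reads TTTATA, so it lies on the strand opposite to the gene. It begins 113 bases before the start site of Selenbp1 and 103 before that of Selenbp2. Over the 32851 RefSeq promoters, 12.4% hold TATAAA and 10.8% hold TTTATG in such a window. A promoter was found for 7 of the 10 genes, Car1, Car2 and Slc26a2 having none. TATAAA was also matched in that of Krt20, there on the strand of the gene and 29 bases before the start site. TTTATG was matched in Selenbp1 alone among the 7, and CAAAGT, the core bound by HNF4 factors, in none. A match is a run of letters and not a measured site.

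Of the other genes on which results turned, Krt20 lies at chr11:99428403-99438150 on the minus strand of GRCm38, Aqp8 at chr7:123462291-123468004 and Guca2a at chr4:119637704-119639471, both on the plus strand, and Car1 and Car2 lie at chr3:14766216-14808368 (minus) and chr3:14886273-14900770 (plus). The 10 genes spanned a wide range of expression. Car1 and Car2 were the most abundant, with means of 733 and 730 CPM over the 16 sums, which placed them at ranks 219 and 221 of 23517 genes. Lypd8 followed with 633 CPM, Ceacam1 with 490 and Guca2a with 336, and Selenbp1 was in the middle with 118 CPM at rank 1473. Slc26a2 had 21.7, Krt20 17.8 and Aqp8 15.0 CPM. Car4, the membrane-anchored carbonic anhydrase of the colonocyte surface, had 26 UMIs in all and was at 0 in 4 sums, with 0.714 CPM on average and 1.92 CPM in the highest sum. Thus 9 of the 10 genes passed the filter on low counts in every comparison and Car4 did not pass in any. For comparison, Lgr5, the gene behind the sort, had 25.7 CPM and Ascl2, a transcription factor of colonic stem cells, 308 CPM. From Car1 down to Aqp8 the ranges of neighbours in this order overlapped, apart from Selenbp1, with 37.8 CPM in its lowest sum, and Slc26a2, with 37.0 CPM in its highest.

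**Figure D1:**
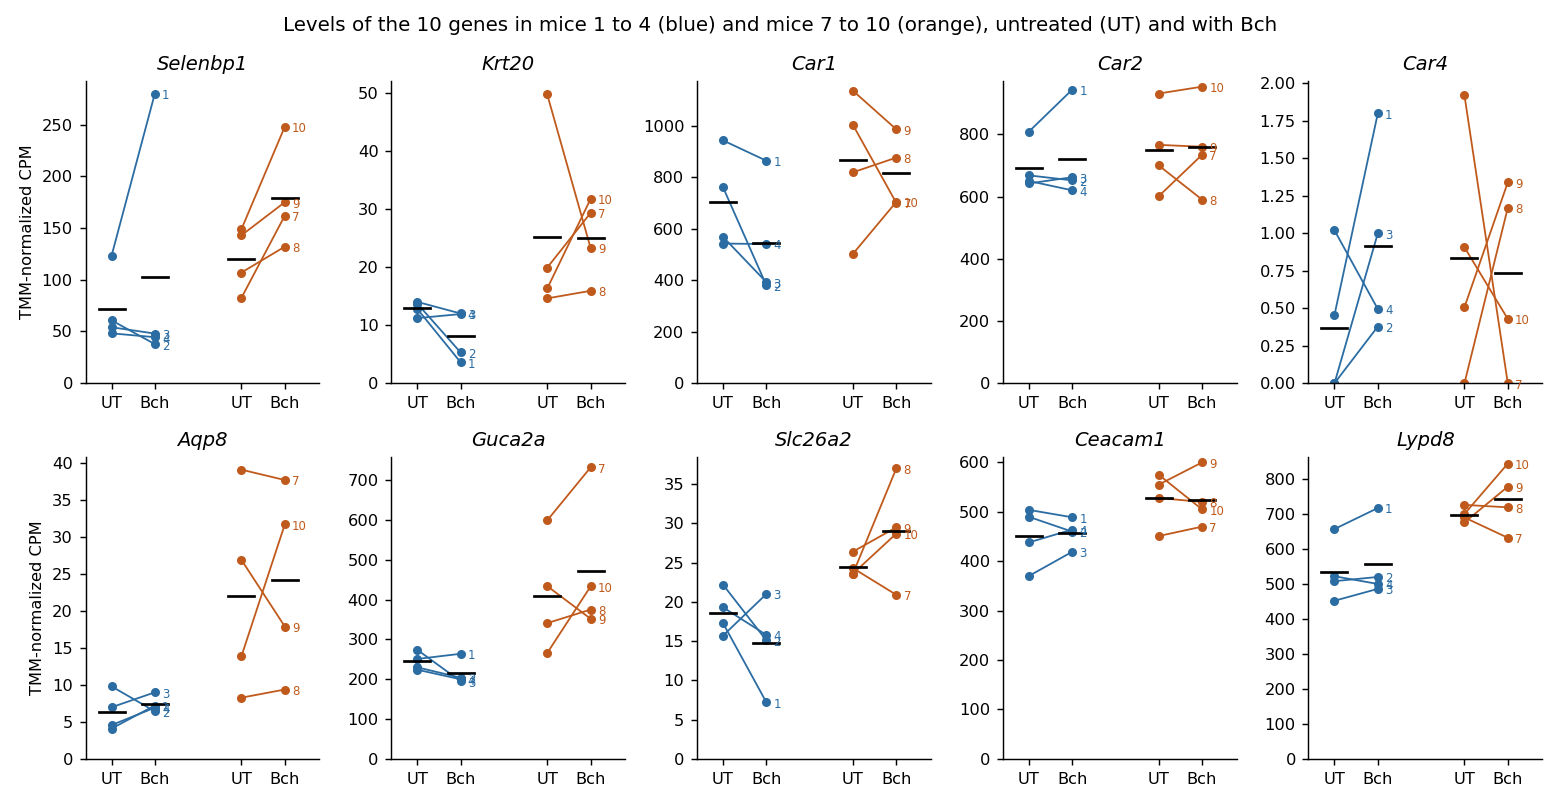
TMM-normalized CPM (vertical axes, linear, from 0) of the 10 genes in every sum, with a line for each mouse from untreated (UT) to Bch, and black bars for the means of 4 mice. Selenbp1 was higher with Bch in each of mice 7 to 10, and among mice 1 to 4 only in mouse 1, which had 280 CPM against 37.8 to 48.0 in the others.

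The spread between mice and the reading error set how finely each gene could be followed. For Selenbp1, Car1, Car2, Guca2a, Ceacam1 and Lypd8, the technical replicates of a sum differed by at most 1.39-fold. For Slc26a2, Aqp8 and Krt20, which had few UMIs, the largest such difference was 2.07-, 2.75- and 5.29-fold. Between mice, Lypd8 varied least in untreated cells of mice 7 to 10, from 676 to 726 CPM, while Aqp8 ranged from 8.28 to 39.1 CPM there. Differences between mice made up 95.7% and 43.2% of the variance of Lypd8 on the log2 scale in mice 1 to 4 and 7 to 10, and 90.6% and 83.8% of that of Car2 in mice 1 to 4 and 7 to 10.

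Selenbp1 in mice 7 to 10 is given first, as a description, because it was chosen from these values. Untreated cells of mice 7, 8, 9 and 10 had 82.6, 107, 143 and 149 CPM, and Bch-treated cells 162, 132, 175 and 248 CPM. Each mouse was higher with Bch, while the groups overlapped. The means were 120 ± 31.2 CPM (SD, n = 4) untreated and 179 ± 49.3 CPM (SD, n = 4) with Bch, and the paired log2 fold change was 0.57 with a standard error (SE) of 0.14. Treatment accounted for 42.5% and mice for 46.8% of the variance of log2 CPM. With the counts of Selenbp2 added the log2 fold change was 0.55.

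No other member was higher in 4 of 4 of these mice (1 of 10; 5.81% of the 9515 genes tested), and 0 of 10 were lower in 4 of 4 (5.59%). Since Selenbp1 was chosen on this contrast, nothing is read from these shares. Log2 fold changes were 0.26 (SE 0.22) for Slc26a2, 0.21 (SE 0.14) for Guca2a, 0.20 (SE 0.26) for Aqp8, 0.10 (SE 0.26) for Krt20 and 0.09 (SE 0.14) for Lypd8. Car2, Ceacam1 and Car1 were at 0.01, -0.01 and -0.03, with SEs of 0.14, 0.14 and 0.15. Over mice left out in turn Guca2a was at 0.05 to 0.37 and Slc26a2 at 0.12 to 0.37. The median over the 9 genes tested was 0.10, against -0.002 over all genes tested. By edgeR's quasi-likelihood test, 0 of the 9515 genes passed an adjusted p of 0.05 (0% called), 360 (3.78%) had an unadjusted p under 0.05, and DESeq2's Wald test called 0.

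Within these means the mice went apart. Krt20 went from 49.7 to 23.3 CPM in mouse 9 and from 16.3 to 31.7 CPM in mouse 10. Aqp8 went from 13.9 to 31.7 CPM in mouse 10 and from 26.9 to 17.9 CPM in mouse 9. Guca2a was lower with Bch in mouse 9 alone, 434 against 352 CPM, and went from 266 to 433 CPM in mouse 10. The same 2 mice thus moved in opposite directions in all 3 genes, mouse 9 down and mouse 10 up. Car1 did so too (log2 ratios -0.20 and 0.48), and Car2 was almost level in both (-0.01 and 0.03). The rest did not share this pattern. Selenbp1, Slc26a2 and Lypd8 were higher in both mice. Ceacam1 went the other way (0.11 in mouse 9 and -0.19 in mouse 10), as did Car4 on few UMIs.

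In mice 1 to 4, whose samples did not serve to choose Selenbp1, untreated cells had 123, 60.8, 54.1 and 48.2 CPM of Selenbp1 in this order, and Bch-treated cells 280, 37.8, 48.0 and 44.5 CPM. Mouse 1 stood above the other 3 in both states and was the only mouse with a higher level after Bch. The log2 fold change was 0.22 (SE 0.26, adjusted p = 0.928 by edgeR over 9509 genes), and -0.34 (SE 0.19, adjusted p = 0.737) without mouse 1. Differences between mice made up 85.5% of the variance. Untreated mouse 1 was also the sum with 13114 sorted cells; the part of this number in its level was not tested.

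None of the 9 genes tested passed the threshold in mice 1 to 4 (0 of 9; 0.0210% of all genes tested were called). Without adjustment 2 of them had a p under 0.05 (7.72% of all genes tested), Car1 and Krt20, both lower with Bch. DESeq2 gave an adjusted p for 5 of the 9 and for 845 genes in all, and called 0 of the 5 and 1.66% of the 845. No member was higher in 4 of 4 mice, as 8.22% of the genes tested were. Car1 had 944, 762, 569 and 543 CPM untreated and 865, 381, 393 and 541 CPM with Bch. It was the only member lower in 4 of 4 mice, as were 6.85% of the genes tested with mouse 4 almost level. Its log2 fold change was -0.41 (SE 0.12, adjusted p = 0.195 by edgeR), and -0.55 to -0.21 over mice left out in turn. Krt20 went from 12.8 to 3.61 CPM in mouse 1 and from 13.7 to 5.30 CPM in mouse 2, and stayed near its untreated level in mice 3 and 4 (log2 fold change -0.76, SE 0.35, edgeR adjusted p = 0.605; -1.12 to -0.48 over mice left out). Slc26a2 followed with -0.44 (SE 0.28) and Guca2a with -0.17 (SE 0.10), and Aqp8 was at 0.23 (SE 0.41), with -0.64 to -0.21, -0.26 to -0.08 and 0.05 to 0.61 over mice left out. Lypd8, Car2 and Ceacam1 were at 0.05, 0.04 and 0.03, each with an SE of 0.09.

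**Figure D2:**
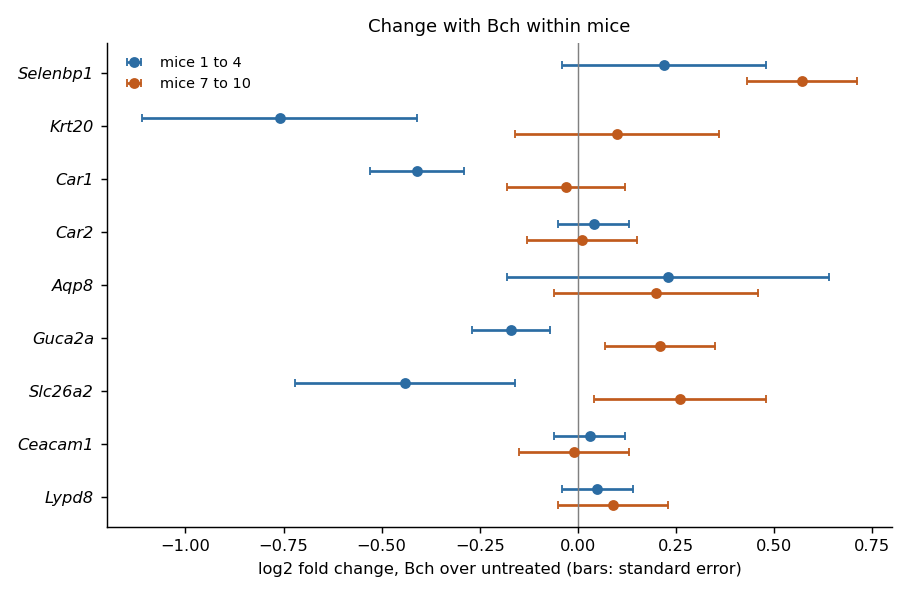
Log2 fold change of Bch over untreated (horizontal axis) for the 9 genes tested, with bars of 1 standard error on each side, in mice 1 to 4 (blue) and mice 7 to 10 (orange). Selenbp1 had the highest value in mice 7 to 10, 0.57, and Krt20 the lowest in mice 1 to 4, -0.76, while Car2 and Ceacam1 were near 0 in both.

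The difference between the 2 responses, mice 7 to 10 minus mice 1 to 4, is a description here, since it contains the contrast that chose Selenbp1. On the log2 scale it was 0.85 (SE 0.46) for Krt20, 0.70 (SE 0.35) for Slc26a2, 0.39 (SE 0.18) for Guca2a, 0.38 (SE 0.20) for Car1 and 0.38 (SE 0.34) for Selenbp1. Over mice left out in turn the value of Selenbp1 was 0.10 to 0.93, the highest without mouse 1 (SE 0.23). Lypd8, Aqp8, Car2 and Ceacam1 lay between -0.04 and 0.04. Of 10280 genes tested, 0 passed the threshold by edgeR and 0 by DESeq2, and 451 (4.39%) had an unadjusted p under 0.05.

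More genes were called between the sets than between the treatments. Selenbp1 is left to a description here, since it was chosen on its untreated and treated levels in mice 7 to 10, and counts are over the 8 other genes tested. In untreated cells all 8 had a higher level in mice 7 to 10 than in mice 1 to 4, as had 4383 of all 9159 genes tested. Aqp8 passed the threshold (1 of 8; 1.64% of all genes tested were called and 0.972% were called higher), 4 of the 8 had an unadjusted p under 0.05 (12.7%), and DESeq2, which called 2.53% of the 7380 genes it gave an adjusted p, called Aqp8 and Guca2a. The untreated level of Aqp8 was 39.1, 8.28, 26.9 and 13.9 CPM in mice 7 to 10 and 4.10, 9.81, 6.98 and 4.57 CPM in mice 1 to 4. Only mouse 8 reached into the range of the other set. In UMIs these were 61, 13, 53 and 46 against 9, 15, 4 and 9. Aqp8 thus passed the filter on low counts through mice 7 to 10, where it was high, so the test was open mainly to this direction. The log2 fold change was 1.81 (SE 0.43, edgeR adjusted p = 0.0321). The call rested on 4 to 61 UMIs a sum and was lost when any one of mice 1, 3, 4, 7 or 9 was left out, with log2 fold changes of 1.41 to 1.85, and it was lost with technical replicate 1 alone (1.69, edgeR adjusted p = 0.211), while with replicate 2 alone, and after thinning, Aqp8 did not pass the filter and was not tested.

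The other 7 did not pass by edgeR with all mice and the filter on low counts. Krt20 was 0.96 higher on the log2 scale (SE 0.34, edgeR adjusted p = 0.191), with 14.6 to 49.7 CPM against 11.2 to 14.0 CPM, and over mice left out in turn the value was 0.39 to 1.15. Guca2a was 0.73 higher (SE 0.20, edgeR adjusted p = 0.107), and it passed by DESeq2 (0.74, adjusted p = 0.0117), without mouse 10 (0.90, SE 0.15, edgeR adjusted p = 8.79e-04) and without the filter (0.74, SE 0.13, edgeR adjusted p = 6.42e-06). Lypd8 was 0.36 higher (SE 0.12, edgeR adjusted p = 0.154) and passed without mouse 1 (0.48, SE 0.13, edgeR adjusted p = 0.0487). Slc26a2, Car1, Ceacam1 and Car2 had log2 fold changes of 0.35, 0.28, 0.21 and 0.10, with SEs of 0.24, 0.27, 0.12 and 0.13. The ranges did not overlap for 3 of the 10 genes, Krt20, Slc26a2 and Lypd8, all higher in mice 7 to 10, as for 4.59% of the genes tested, and none of the 10 was lower without overlap, as 3.43% were. The nearest sums of Krt20 were 14.0 CPM on 8 UMIs in mouse 3 and 14.6 CPM on 23 UMIs in mouse 8. Those of Slc26a2 were 22.2 CPM on 34 UMIs in mouse 2 and 23.6 CPM on 37 UMIs in mouse 8. Both gaps were smaller than the counting error. The median over the 8 genes was 0.36, against -0.016 over all genes tested.

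Selenbp1 in untreated cells had 120 ± 31.2 CPM in mice 7 to 10 and 71.6 ± 34.8 CPM in mice 1 to 4 (SD, n = 4 each), a log2 fold change of 0.70 (SE 0.31). It was 1.14 (SE 0.20) without mouse 1, 0.71 (SE 0.17) with all mice and no filter, and 0.52 to 1.14 over mice left out in turn. With all mice the ranges overlapped, 82.6 to 149 CPM against 48.2 to 123 CPM, with mouse 1 at 123 CPM.

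In the Bch-treated cells of the same mice, 4 of the 8 genes other than Selenbp1 passed the threshold, all higher in mice 7 to 10 (2.06% of all genes tested were called and 1.23% were called higher), 5 of the 8 had an unadjusted p under 0.05 (13.4%), and DESeq2 called the same 4, with 2.51% of 9075 genes called. Krt20 had 29.3, 15.9, 23.3 and 31.7 CPM in mice 7 to 10 and 3.61, 5.30, 12.0 and 11.9 CPM in mice 1 to 4, a log2 fold change of 1.56 (SE 0.32, adjusted p = 0.00426 by edgeR). The sets did not overlap, and this call held with each mouse left out in turn. It rested on 6, 14, 24 and 24 UMIs in mice 1 to 4, and after thinning Krt20 did not pass the filter and was not tested. Aqp8 had 37.7, 9.38, 17.9 and 31.7 CPM against 7.22, 6.43, 9.00 and 6.93 CPM, also without overlap, and was 1.60 higher on the log2 scale (SE 0.36, edgeR adjusted p = 0.0136). Its nearest sums, 9.38 CPM on 40 UMIs and 9.00 CPM on 18 UMIs, differed by less than the counting error.

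Guca2a had 732, 375, 352 and 433 CPM in mice 7 to 10 with Bch and 264, 204, 195 and 200 CPM in mice 1 to 4, again without overlap. It was 1.12 higher on the log2 scale (SE 0.21, adjusted p = 0.0154 by edgeR). Slc26a2 was 1.00 higher (SE 0.25, edgeR adjusted p = 0.0234), with 20.9 to 37.0 CPM against 7.22 to 21.0 CPM, an overlap of mice 3 and 7. Non-overlap in this direction was seen for 3 of the 10 genes and for 3.63% of the genes tested, and in the other direction for 0 of 10 and 3.91%. The calls of Aqp8 (without mouse 2, 4 or 10), Guca2a (4 or 10) and Slc26a2 (2, 4, 8 or 10) were each lost when 1 of the named mice was left out, at log2 fold changes of 1.38 to 1.58, 1.09 to 1.15 and 0.85 to 1.03. That of Aqp8 was also lost in 1 fit over all 16 sums (1.61, edgeR adjusted p = 0.0823), and that of Slc26a2 with technical replicate 1 alone (1.01, edgeR adjusted p = 0.0561) and after thinning (0.72, edgeR adjusted p = 0.356).

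Below the threshold in Bch-treated cells were Car1 (log2 fold change 0.59, SE 0.27), Lypd8 (0.42, SE 0.14), Ceacam1 (0.19, SE 0.12) and Car2 (0.08, SE 0.15). Selenbp1 was 0.84 higher (SE 0.74), again a description, and 2.05 (SE 0.18) without mouse 1. Without that mouse 6 of the 8 other genes passed, while the share over all genes tested went from 2.06% to 4.69%, with Car1 at 0.90 (SE 0.15, edgeR adjusted p = 9.25e-05) and Lypd8 at 0.57 (SE 0.13, edgeR adjusted p = 0.00572) among the 6. Lypd8 passed without mouse 7 as well (0.49, SE 0.13, edgeR adjusted p = 0.0467). The median over the 8 genes with all mice was 0.79, against -0.007 over all genes tested. The untreated and the Bch-treated comparison used different libraries of the same 8 mice.

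**Figure D3:**
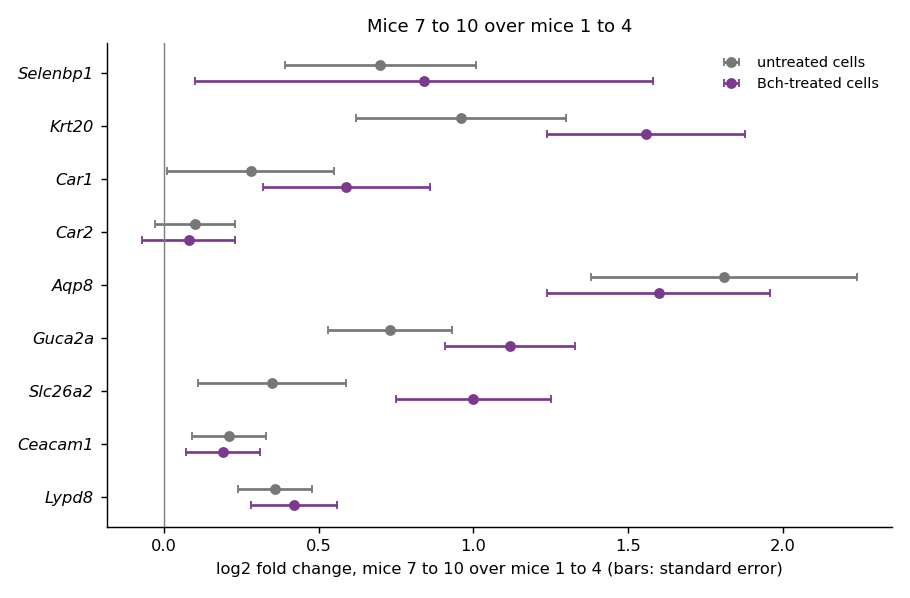
Log2 fold change of mice 7 to 10 over mice 1 to 4 (horizontal axis) for the 9 genes tested, with bars of 1 standard error on each side, in untreated (grey) and Bch-treated cells (purple). All points lie above 0, the highest being Aqp8 at 1.81 and 1.60 and the lowest Car2 at 0.10 and 0.08.

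Genes that act with the 10 were counted in the same way, in lists by function. Beside these counts, edgeR called 1.64% of all genes tested untreated and 2.06% with Bch. Unadjusted p-values under 0.05 were had by 12.7% and 13.4% of all genes tested. Guca2b, which encodes uroguanylin and lies next to Guca2a on chromosome 4, had 148 ± 48.2 against 85.1 ± 13.6 CPM untreated (SD, n = 4 each; log2 fold change 0.77, SE 0.19, adjusted p = 0.0368 by edgeR), and 0.92 (SE 0.19, edgeR adjusted p = 0.00936) with Bch. Their receptor Gucy2c had 35.7 ± 5.48 and 33.5 ± 2.24 CPM (SD, n = 4 each) and a log2 fold change of 0.06 (SE 0.20) untreated and -0.13 (SE 0.21) with Bch. Among the 6 guanylin signalling genes beside Guca2a, all tested, Guca2b alone passed in either state. Pde5a, which breaks down the cyclic GMP made by the receptor, was at -0.27 (SE 0.34) and 0.25 (SE 0.27).

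Water and ion transport genes gave 1 call of 14 tested untreated and 1 of 13 with Bch, both Aqp4. This water channel of the basolateral membrane had 55.2 ± 15.4 against 22.5 ± 6.16 CPM untreated (SD, n = 4 each), 1.21 higher on the log2 scale (SE 0.23, edgeR adjusted p = 0.00209), and was 0.85 higher with Bch (SE 0.19, edgeR adjusted p = 0.0111). Slc26a3, the chloride and bicarbonate exchanger of the surface, was 1.40 (SE 0.48) and 1.21 (SE 0.44) higher, below the threshold. Of the other carbonic anhydrases, 9 of 13 are in the table, 4 were tested and 0 passed by edgeR or DESeq2 in either state, with 1 unadjusted p under 0.05 untreated and 0 with Bch. Car9, which is induced by low oxygen, was at 0.52 (SE 0.23) and 0.39 (SE 0.53), and Car13 at 0.32 (SE 0.25) and -0.02 (SE 0.21).

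Genes of sulfur gas and cysteine metabolism gave 1 call in each state, and it was lower. Cth, which makes cysteine from cystathionine, had 49.7 ± 9.07 against 89.2 ± 8.88 CPM untreated (SD, n = 4 each). Its log2 fold change was -0.85 (SE 0.17, edgeR adjusted p = 0.0041) untreated and -1.03 (SE 0.15, edgeR adjusted p = 3.54e-05) with Bch. Ethe1, a mitochondrial persulfide oxidase, was 0.38 (SE 0.13) and 0.49 (SE 0.14) higher, below the threshold, and Selenbp2 was not tested for its few UMIs. The list had 9 genes tested untreated and 8 with Bch, with medians of 0.12 and 0.06.

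The brush border, the layer of microvilli on mature absorptive cells, was counted next. Of 16 brush border genes tested, 0 passed untreated by edgeR or DESeq2, where edgeR called 1.64% of all genes tested. With Bch 1 passed (2.06% of all genes tested), the mucin Muc13 (log2 fold change 0.50, SE 0.14, edgeR adjusted p = 0.049). Unadjusted p-values under 0.05 by edgeR were 3 untreated and 4 with Bch, against 12.7% and 13.4% of all genes tested. The medians were -0.09 and 0.05. Vil1, the villin of the microvillus core, was at -0.26 (SE 0.18) and -0.08 (SE 0.16). Ush1c, a scaffold protein of the microvillus tips, was at -0.45 (SE 0.18) untreated, and Gpa33, a surface antigen of colonic epithelium, at 0.29 (SE 0.13). Among 12 factors that direct differentiation, 0 passed untreated by edgeR (0 unadjusted p-values under 0.05) or DESeq2, and Klf4 passed with Bch (log2 fold change 1.06, SE 0.26, edgeR adjusted p = 0.0208). Cdx2 and Hnf4a, which keep intestinal identity, were at -0.03 (SE 0.14) and 0.13 (SE 0.17) untreated, Cdx1 at 0.24 (SE 0.12) and Ihh, a signal from surface cells, at 0.44 (SE 0.23).

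Other surface genes were called singly. Of 12 keratin and terminal differentiation genes tested, Sprr1a, a cornified envelope protein, was called in both states, 0.76 higher untreated (SE 0.16, edgeR adjusted p = 0.00798) and 1.07 higher with Bch (SE 0.23, edgeR adjusted p = 0.0355), and its relative Sprr2a3 was at 0.49 (SE 0.14) and 0.82 (SE 0.23), below edgeR's threshold, while DESeq2 called it with Bch. Among genes of surface defence, 6 tested untreated and 7 with Bch, Pigr, which carries IgA across the epithelium, was called with Bch (0.84, SE 0.13, edgeR adjusted p = 5.16e-05) and was at 0.44 (SE 0.12) untreated, where DESeq2 called it and edgeR did not. Ceacam10 was at 1.28 (SE 0.44) and 1.48 (SE 0.59), below the threshold.

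Markers of stem cells, which the sort selects for, and of other cell types were counted beside these genes. Of 15 stem cell genes tested untreated, 13 were lower in mice 7 to 10, as were 4776 of all 9159 genes tested. Called lower were 2 of the 15, against 61 of the 9159. They were Ascl2 (log2 fold change -0.51, SE 0.13, edgeR adjusted p = 0.0319) and the Wnt target Axin2 (-0.84, SE 0.22, edgeR adjusted p = 0.0472), and the list median was -0.37. With Bch, 13 of 16 were lower, as were 4921 of all 9639 genes tested, and the list median was -0.28. Ascl2 (-0.92, SE 0.13, edgeR adjusted p = 1.99e-05) and Sox9 (-0.57, SE 0.14, edgeR adjusted p = 0.0199) were called lower, as were 80 of the 9639. Lgr5 itself had 19.5 ± 5.74 against 34.5 ± 4.04 CPM untreated and 26.5 ± 4.73 against 22.4 ± 6.44 CPM with Bch (SD, n = 4 each), with log2 fold changes of -0.87 (SE 0.24, edgeR adjusted p = 0.0592) and 0.25 (SE 0.23). The goblet cell list gave 9 higher of 11 untreated (4383 of all 9159 genes tested) and 0 called by edgeR, while DESeq2 called Agr2. Unadjusted p-values under 0.05 were 4 there, against 12.7% of all genes tested. With Bch 12 of 12 were higher (4718 of all 9639), and Muc2, Clca1 and Agr2 were called, where 1.23% of all genes tested were called higher. Muc2, the gel-forming mucin, was 0.63 (SE 0.18) and 0.85 (SE 0.16) higher, and Agr2 0.63 (SE 0.17) and 0.89 (SE 0.21).

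The summed level of the 12 goblet markers was 4998 to 7580 CPM in untreated mice 1 to 4 and 3866 to 10181 CPM in untreated mice 7 to 10, and 4570 to 6045 and 6055 to 15356 CPM with Bch. That of the 12 enteroendocrine markers was 309 to 511 against 529 to 1095 CPM untreated, and 319 to 598 against 477 to 1179 CPM with Bch. Chga and Pyy, the hormone cell genes with the smallest p, were at 0.69 (SE 0.23) and 1.07 (SE 0.30) untreated, and 0 of 10 enteroendocrine genes passed by edgeR or DESeq2, with 3 unadjusted p-values under 0.05 (0 of 9 with Bch, 0 unadjusted). The 12 cycling genes had medians of 0.02 and 0.10 and 0 calls by edgeR or DESeq2, with 3 unadjusted p-values under 0.05 untreated and 1 with Bch. Mcm6 and Mcm2, which license DNA replication, were at -0.44 (SE 0.19) and -0.48 (SE 0.21), and Mki67 at 0.01 (SE 0.23). Of the tuft cell list Cd24a alone was tested untreated, at 0.20 (SE 0.14). In these bulk samples, fewer cells of a type and less RNA per cell cannot be told apart, and the part of the other cell types, the sex, the kit or the source in the level of the 10 genes was not tested.

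How far these calls of list genes held without single mice was uneven. Those of Cth in both states, Aqp4 untreated, and Ascl2, Muc2 and Pigr with Bch held with each mouse left out in turn. The untreated calls were lost without mouse 1, 3, 4, 7 or 9 for Guca2b, without 1, 2, 4, 7 or 8 for Ascl2, without 4 for Sprr1a and without any mouse but 10 for Axin2. With Bch, Guca2b was lost without mouse 4 and Clca1 without 10. Aqp4 was lost without 2, 3, 4 or 10, Klf4 without 2, 3 or 10, Sox9 without 2, 3, 4, 8 or 10, Agr2 without 1, 2, 3, 4 or 10, Muc13 without any but 1 or 7, and Sprr1a without any but 1 or 8. The largest edgeR adjusted p without a mouse was 0.274, that of Agr2. Log2 fold changes over mice left out kept their sign. Untreated they were 0.55 to 0.91 for Guca2b, -0.59 to -0.43 for Ascl2, 0.64 to 0.89 for Sprr1a and -1.06 to -0.71 for Axin2. With Bch they were 0.67 to 1.04 for Guca2b, 1.52 to 1.98 for Clca1, 0.73 to 1.04 for Aqp4 and 0.82 to 1.19 for Klf4. Sox9 was at -0.64 to -0.49, Agr2 at 0.61 to 1.02, Muc13 at 0.44 to 0.56 and Sprr1a at 0.96 to 1.36. Under the other alternatives the untreated call of Axin2 was lost under 6, DESeq2's size factors among them (edgeR adjusted p = 0.0501), that of Guca2b under 4 and that of Sprr1a under 1. With Bch, Muc13 was lost under 5, Agr2 under 3, Aqp4 and Sox9 under 2 each and Klf4 under 1.

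**Figure D4:**
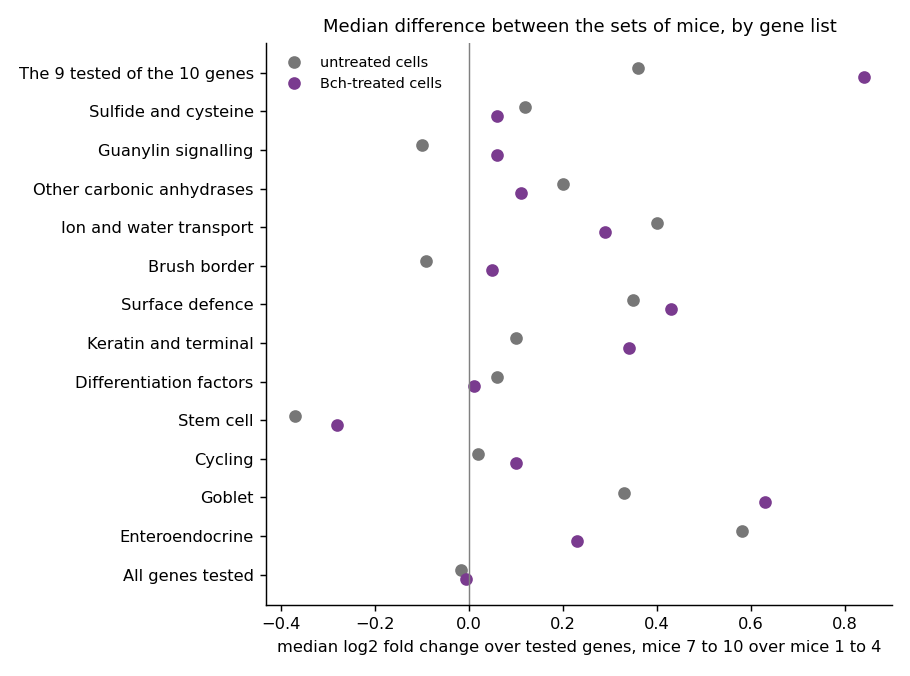
Median log2 fold change of mice 7 to 10 over mice 1 to 4 (horizontal axis) over the tested genes of each list, in untreated (grey) and Bch-treated cells (purple), with all genes tested at the bottom. The 9 tested of the 10 genes lie at 0.36 and 0.84, or 0.36 and 0.79 without Selenbp1, and stem cell genes at -0.37 and -0.28.

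Within mice, 0 of 129 genes of these lists passed with Bch in mice 7 to 10 by edgeR or DESeq2, as did 0% of all genes tested. By edgeR 12 of the 129 had an unadjusted p under 0.05, against 3.78% of all genes tested. In mice 1 to 4, 0 of 126 passed by edgeR (0.0210% of all genes tested), with 7 at an unadjusted p under 0.05 (7.72%). DESeq2 called the goblet gene Spink4 there, and 1.66% of the 845 genes it gave an adjusted p. For lists with more than 2 genes tested, the medians lay between -0.11 and 0.23 in mice 7 to 10, with the goblet list highest and the brush border next at 0.19. In mice 1 to 4 they lay between -0.07 and 0.19, with the cycling genes at the low end. Of these 11 of 12 were lower, as were 4730 of all 9509 genes tested. Lgr5 was higher with Bch in 4 of 4 and Ascl2 lower in 4 of 4 of mice 7 to 10 (5.81% and 5.59% of all genes tested), by mean log2 ratios of 0.45 and -0.32, and of the stem cell list 8 genes were higher and 7 lower there. In mice 1 to 4 Lgr5 was lower in 3 of 4 mice and Ascl2 higher in 3 of 4, by mean log2 ratios of -0.64 and 0.13.

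Correlations of log2 CPM between the 10 genes were taken over the 8 sums of a set, which share mice and libraries, and are descriptions. Of the 36 pairs among the 9 genes tested, 7 had a correlation above 0 in both sets, 7 below 0 in both and 22 of opposite sign. The medians were -0.04 in mice 1 to 4 and 0.16 in mice 7 to 10. Car1 and Car2 had 0.71 in mice 1 to 4 and -0.60 in mice 7 to 10. Krt20 and Slc26a2 had 0.83 and -0.10, and Guca2a and Aqp8 -0.23 and 0.77. Only 2 pairs exceeded 0.5 in both sets, Selenbp1 with Car2 (0.98 and 0.75) and Selenbp1 with Lypd8 (0.90 and 0.53). Without mouse 1 these values in mice 1 to 4 were 0.37 and -0.39. For Selenbp1, 5 of the 8 correlations in mice 1 to 4 changed sign without that mouse, from -0.50 to 0.85 with Krt20, from -0.74 to 0.63 with Slc26a2, from -0.14 to 0.45 with Aqp8, from 0.47 to -0.12 with Ceacam1 and from 0.90 to -0.39 with Lypd8.

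The genes most like Selenbp1 came from outside the 10. Among 5118 genes with a mean of at least 20 CPM, likeness was the smaller of the 2 correlations within a set. The first was Egln3, a prolyl hydroxylase of the oxygen-sensing pathway, with 0.96 in mice 1 to 4 and 0.92 in mice 7 to 10. It was followed by Mif, a cytokine gene (0.97 and 0.91), by 2610528A11Rik (0.96 and 0.88), by Ndrg2 (0.94 and 0.86) and by Pgm1, a phosphoglucomutase that links glycogen to glycolysis (0.90 and 0.85). Egln3 had 37.1, 52.8, 62.9 and 64.1 CPM in untreated mice 7 to 10 and 103, 60.3, 75.6 and 103 CPM with Bch. In mice 1 to 4 mouse 1 carried much of the likeness, with 59.7 and 90.8 CPM of Egln3 against 27.0 to 35.3 CPM in the other 6 sums. Over these 6 sums the correlation with Selenbp1 was 0.22 for Egln3, 0.37 for Mif and 0.60 for Pgm1, and 0.80 for 2610528A11Rik and 0.73 for Ndrg2. Krt20, Aqp8 and Car4 had means under 20 CPM and were not ranked. Among the other members Car2 came nearest at rank 18 and Lypd8 next at rank 112.

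**Figure D5:**
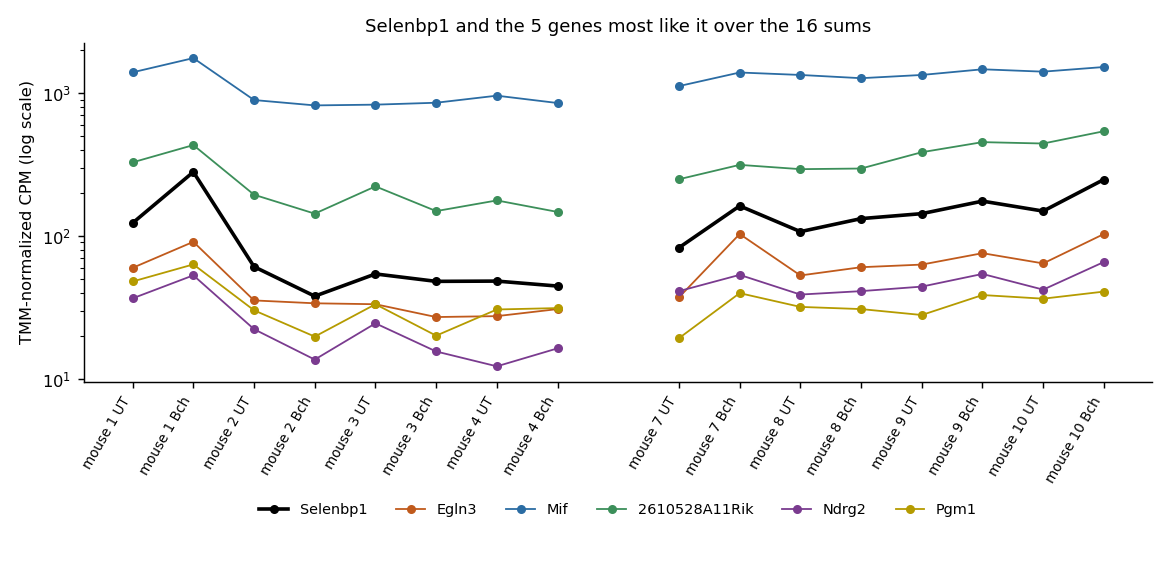
TMM-normalized CPM (vertical axis, log scale) of Selenbp1 (thick black line) and of the 5 genes most like it in each of the 16 sums, ordered by mouse and treatment. Both sums of mouse 1 stand above the other sums of mice 1 to 4 in all 6 genes, and in mouse 7 Selenbp1 went from 82.6 to 162 CPM with Bch and Egln3 from 37.1 to 103 CPM.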

How the data were processed

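Lgr5-EGFP+ cells of 8 mice, untreated or with Bch, were measured in 32 libraries. The authors deposited UMI counts per gene, without normalization. They made cDNA with barcoded oligo-dT primers and ran the Drop-seq pipeline on GRCm38 with GENCODE M25. The labels name a human build, GRCh38, while the genes are mouse symbols. Blanks of 1520 genes in technical replicate 2 were read as 0.

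From these counts, the technical replicates were summed, 1 sum per mouse and treatment, and only mice counted in n. The deepest and the shallowest sum allow 0.741 and 5.38 CPM for a gene with 0 UMIs, taking 3 UMIs as the 95% limit, for counting error only. Tests used edgeR 4.0.16 in R 4.3.3 (filterByExpr by group, TMM, robust quasi-likelihood fit, Benjamini-Hochberg over all genes tested, threshold 0.05), and an SE is the log2 fold change over the square root of F. Bch was tested within mice with the mouse as a block, in mice 1 to 4 and 7 to 10 apart. The labels give the pairing, the 2 sums of a number being from the same mouse, and deviations of pairs from their group means correlated at -0.0203 to 0.244 over 10280 genes. The sets were compared in untreated and in treated cells without a block. Correlations used log2 CPM with a prior count of 2. Positions and transcripts came from GENCODE M21 on GRCm38, promoters from RefSeq.

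The 10 genes, the 14 other lists and the tests were chosen with earlier results of these data known. Named genes are the 10, the 2 genes per list with the smallest p in the untreated set difference, 12 genes fixed by name, and the 5 most like Selenbp1. Muc13, Klf4, Sox9 and Clca1 are named because they passed the threshold, and Spink4 because DESeq2 called it. Alternatives covered the scaling, DESeq2 1.42.0, the filter, each technical replicate alone, thinning to 557512 UMIs, Selenbp2 added, no block, 1 fit over 16 sums and each mouse left out. A fit without ribosomal protein and mitochondrial genes, and correlations without mouse 1, were added after seeing the data. The steps were tested on simulated data, with 100 genes changed at each size. At a log2 change of 1, the Bch fits recovered 77% of these genes in mice 7 to 10 and 61% in mice 1 to 4. For the difference between the responses 30% were recovered, and between the sets 60% untreated and 62% with Bch. At a log2 change of 2, 82% to 96% were recovered, and 4 to 14 unchanged genes were called in a comparison.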

Additional observations from a re-analysis of the deposited data

Results flagged for a closer look

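In the Bch-treated cells of mice 1 to 4, mouse 1 stood apart from the other 3 mice in 3 of the 10 genes, by the gap to its nearest neighbour as a share of the range of log2 CPM. Selenbp1 had 280 CPM in it against 37.8, 44.5 and 48.0 CPM, a share of 0.883. Car2 had 943 CPM against 620 to 662 CPM (0.845), and Guca2a had 264 CPM against 195 to 204 CPM (0.860). These shares are above Dixon's critical value for groups of 4, which about 1 in 20 groups passes by chance, and 40 groups were tested.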

How the results depend on the processing

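Over mice left out in turn, the genes called with Bch were 0 to 4 in mice 7 to 10 (0 with all) and 0 to 19 in mice 1 to 4 (2 with all), and between the sets 74 to 210 untreated (150) and 92 to 469 with Bch (199), where 0 to 2 (1) and 1 to 6 (4) of the genes other than Selenbp1 were called. With Bch in mice 7 to 10, log2 fold changes over mice left out took both signs for Krt20 (-0.24 to 0.58), Aqp8 (-0.19 to 0.49), Car1 (-0.20 to 0.13), Car2 (-0.07 to 0.11) and Ceacam1 (-0.06 to 0.06), and were 0.46 to 0.66 for Selenbp1. The difference between the responses took both signs for Aqp8 (-0.42 to 0.27), Car2 (-0.12 to 0.06), Ceacam1 (-0.09 to 0.03) and Lypd8 (-0.02 to 0.10). With Bch in mice 1 to 4, log2 fold changes were -0.34 to 0.50 for Selenbp1, -0.02 to 0.08 for Car2 and -0.01 to 0.07 for Ceacam1, which thinning put at -0.00. Between the sets Car2 was at -0.02 to 0.19 untreated and -0.05 to 0.23 with Bch. The correlation of Selenbp1 in mice 1 to 4 without mouse 1 was 0.85 with Krt20, 0.82 with Car1, 0.37 with Car2, 0.45 with Aqp8, 0.63 with Slc26a2, -0.12 with Ceacam1 and -0.39 with Lypd8.

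Genes called with Bch in mice 1 to 4 were 14 by DESeq2 (of 845 with an adjusted p), 88 without a filter (1 of the 10, Car1), 9 with technical replicate 1 alone, 6 after thinning, and 0 in 1 fit over all sums. Without the replicate block, which ignores the pairing by mouse, they were 0, with 478 at an unadjusted p under 0.05, and the block changed no other call. The difference between the responses gave 1 call without a filter. Genes called between the sets were 234 untreated and 324 with Bch without a filter, 97 untreated with sums over 1000000 UMIs, and 105 with Bch after thinning. Of the genes other than Selenbp1, untreated calls were 2 by DESeq2 and 2 without a filter (Aqp8 and Guca2a in both), and 0 with technical replicate 1 alone, 0 with replicate 2 alone and 0 after thinning (Aqp8 not tested with replicate 2 alone or after thinning), 0 in 1 fit and 0 over 1000000 UMIs. With Bch they were 2 with technical replicate 1 alone, where Aqp8 did not pass the filter, and 1 after thinning, where neither Aqp8 nor Krt20 did. The cause of the other changes was not tested. Scaling by DESeq2's size factors changed no call of the 10 genes and lost that of Axin2. Of the 710 log2 fold changes that the alternatives gave for the 10 genes, 672 kept sign and side of the threshold or, where none was tested, moved by less than the spread between mice. Most of the 710 were for genes that the main fit did not call, so this share says little about the calls. A call of the main fit was lost in 20, those of Aqp8 in both states and of Guca2a and Slc26a2 with Bch. Depth limited Car4, Aqp8, Krt20 and Slc26a2 most, and n was 4 mice a group.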
